A study of Mus musculus with 8 samples.

Results

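Transcript levels of 9 clock-controlled transcription factor genes were examined in mouse 3T3-L1 adipocytes. The genes are Dbp, Tef, Hlf, Nfil3, Nr1d1, Nr1d2, Ciart, Bhlhe40 and Bhlhe41. They were taken by name from a count table of 43629 genes, and all 9 were present. They were chosen by their role in the clock with earlier fold changes of A66 against untreated cells in view. Mouse 3T3-L1 pre-adipocytes are an established line that becomes fat cells in culture, here after insulin, dexamethasone, isobutylmethylxanthine and rosiglitazone, which all groups received. A66 is a small molecule inhibitor of p110α, the catalytic PI3K subunit that acts downstream of the insulin receptor. From day 8 of differentiation, cells were left untreated, given 2 µM A66, given 0.5 mM palmitate bound to albumin (BSA), or given palmitate plus A66, for 24 h. Each of these 4 groups has 2 libraries, 8 in all, of poly(A)-selected RNA. The study's methods describe another A66 dose against a DMSO vehicle, so the doses and the control are given here as in the sample labels. No group is labelled as a BSA control, so palmitate and its carrier cannot be told apart. By the same labels the control was untreated, so the same holds for A66 and its solvent. RNA was taken at 1 time after treatment, so a change in level and a shift in the phase of a daily rhythm cannot be told apart either.

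The circadian clock is a transcriptional feedback loop in which CLOCK (or NPAS2) and BMAL1, the product of Arntl, activate genes through E-box elements, and PER and CRY proteins repress them. The genes described here lie around that loop. DBP, TEF and HLF are activators of the PAR bZIP family that bind D-box elements, and NFIL3 is a repressor that competes for the same elements. REV-ERBα (Nr1d1) and REV-ERBβ (Nr1d2) are nuclear receptors that repress Arntl and other genes through elements with an AGGTCA core, and in fat cells REV-ERBα is also known from adipogenesis. CIART (CHRONO), BHLHE40 (DEC1) and BHLHE41 (DEC2) repress transcription driven by CLOCK and BMAL1.

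The libraries held between 42247091 and 57529803 counts, and 3 counts, used as the floor of detection, correspond to between 0.0519 and 0.0706 CPM, the usual unit in which a gene's count is scaled to its library's total. All 9 genes lay above that floor in every library and passed the filter on low counts in every fit. The lowest count was 53, for Hlf. Replicates differed by more than counting noise in every group, with a mean chi-square per gene between 6.15 and 8.99 where counting noise alone gives about 1. The methods speak of biological repeats for the A66 and untreated cells, and nothing in the labels says that libraries came from separate cultures, so p-values measure the spread between these libraries. The fat cell label was checked with 10 adipocyte markers, all detected, with summed levels between 7287 and 8971 CPM. Of 8 pre-adipocyte or fibroblast markers, 7 passed the filter on low counts, with Col3a1 and Col1a1 among them, and Dlk1 had no counts in any library. Values are CPM scaled by TMM (trimmed mean of M-values) normalization, whose factors lay between 0.982 and 1.013.

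Transcripts of Tef were the most abundant of the 9 per length, and those of Hlf the least. To compare genes, CPM were divided by the length of each gene's merged exons in kb. Over the 8 libraries, Tef averaged 21.8 ± 1.31 CPM per kb (SD, n = 8), followed by Bhlhe40 at 17.2 ± 2.08, Nr1d1 at 14.3 ± 1.06, Nr1d2 at 14.3 ± 2.35 and Nfil3 at 10.2 ± 0.594. Below these were Dbp at 6.13 ± 1.77, Bhlhe41 at 2.64 ± 0.137, Ciart at 1.38 ± 0.283 and Hlf at 0.239 ± 0.0433. The ranges of most neighbours in this order did not overlap, but those of Bhlhe40 and Nr1d1 and those of the REV-ERB genes did. Nr1d1 was above Nr1d2 in 4 of the 8 libraries, both untreated ones among them, and below it in both given palmitate plus A66. Their order is thus not set over the 8 libraries. Bhlhe40 was above Nr1d1 in 7 of the 8. The D-box activators thus spanned the whole range, from Tef at the top to Hlf at the bottom of the order. Dbp varied most over the libraries, by 2.38-fold from the lowest to the highest, while Tef, Nfil3 and Bhlhe41 varied least, by 1.17-fold to 1.18-fold.

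**Figure D1:**
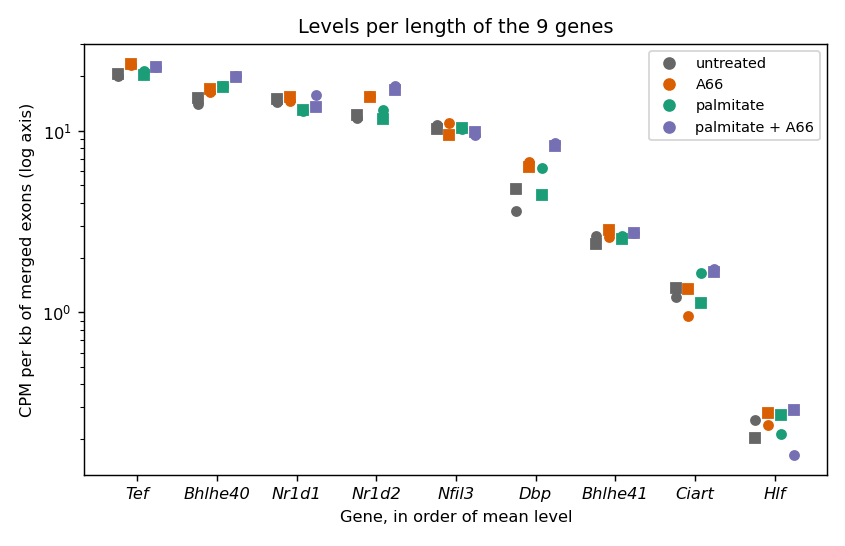
Level per length of the 9 genes, in CPM per kb of merged exons on a log axis, ordered by the mean over the 8 libraries. Each point is 1 library, coloured by group, with circles for replicate 1 and squares for replicate 2. Tef lies between 20.1 and 23.5 and Hlf between 0.163 and 0.288, and the points of Nr1d1 and Nr1d2 overlap.

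Dbp (chr7:45705088-45710203, plus strand, GRCm38) encodes the D-box activator whose transcript is among the most strongly rhythmic in many tissues. It was at 10.8 and 14.4 CPM in the untreated libraries, 20.2 and 18.9 with A66 alone, 18.6 and 13.3 with palmitate alone, and 25.7 and 24.8 with both agents. Both untreated libraries and palmitate replicate 2 were the lowest 3, and the libraries given both agents were the highest of the 8. Replicates of Dbp differed more without A66 than with it, by 1.34-fold in untreated cells and 1.40-fold with palmitate, against 1.07-fold with A66 and 1.03-fold with both agents.

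Tef (chr15:81802421-81826863, plus strand), a D-box activator of the same family, varied much less. The untreated libraries held 158 and 163 CPM, those with A66 182 and 185, those with palmitate 168 and 160, and those with both 176 and 178. Every library given A66 was above every library without it. Hlf (chr11:90336536-90390895, minus strand), the last of the PAR bZIP genes, had between 53 and 98 counts per library, at 1.70 and 1.35 CPM without treatment, 1.60 and 1.85 with A66 alone, 1.42 and 1.83 with palmitate alone, and 1.09 and 1.93 with both agents. The 4 groups overlapped, and Hlf's widest replicate gap, 1.76-fold, was within the group given both agents.

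Nfil3 (chr13:52967209-52981073, minus strand), which encodes the repressor that competes with these activators, varied little across treatments. Its libraries held 21.9 and 20.9 CPM untreated, 22.5 and 19.2 with A66 alone, 20.8 and 21.0 with palmitate alone, and 19.1 and 20.1 with both agents. The ranges of untreated and A66 cells overlapped. Over all 8 libraries the highest value was 1.18-fold the lowest.

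Nr1d2 (chr14:18204054-18239127, minus strand), the gene of REV-ERBβ, separated the libraries by A66. It was at 64.1 and 66.6 CPM in untreated cells and 70.9 and 62.8 with palmitate, against 83.7 and 83.2 with A66 and 95.7 and 90.7 with palmitate plus A66. The lowest library with A66 thus stood clear of the highest without it, in both palmitate states. Nr1d1 (chr11:98767932-98775333, minus strand), the gene of REV-ERBα, did not separate them. Its libraries held 44.4 and 45.9 CPM untreated, 45.3 and 47.5 with A66 alone, 39.6 and 40.1 with palmitate alone, and 48.3 and 41.9 with both agents. The palmitate libraries were the lowest 2 of the 8, and the other 3 groups overlapped.

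Among the E-box repressors, Bhlhe40 (chr6:108660629-108666925, plus strand) had libraries in a separate range in each group. It was at 66.4 and 71.0 CPM untreated, 76.5 and 79.9 with A66 alone, 83.1 and 82.5 with palmitate alone, and 94.3 and 93.5 with both agents, and no 2 groups overlapped. In the pairs of groups compared below, between 40.5% and 46.6% of all genes did not overlap. Differences between A66 alone and palmitate alone, and between both agents and untreated, were not tested. Its close relative Bhlhe41 (chr6:145858243-145865558, minus strand) stayed between 16.1 and 19.0 CPM, at 17.8 and 16.1 untreated, 17.5 and 19.0 with A66 alone, 17.6 and 17.1 with palmitate alone, and 18.5 and 18.4 with both agents. Ciart (chr3:95878503-95882251, minus strand), which encodes CHRONO, was low, with between 111 and 214 counts per library. Its levels were 2.75 and 3.07 CPM untreated, 2.14 and 3.03 with A66 alone, 3.70 and 2.54 with palmitate alone, and 3.94 and 3.77 with both agents. Only the libraries given both agents lay together above all others, and the other 3 groups overlapped.

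**Figure D2:**
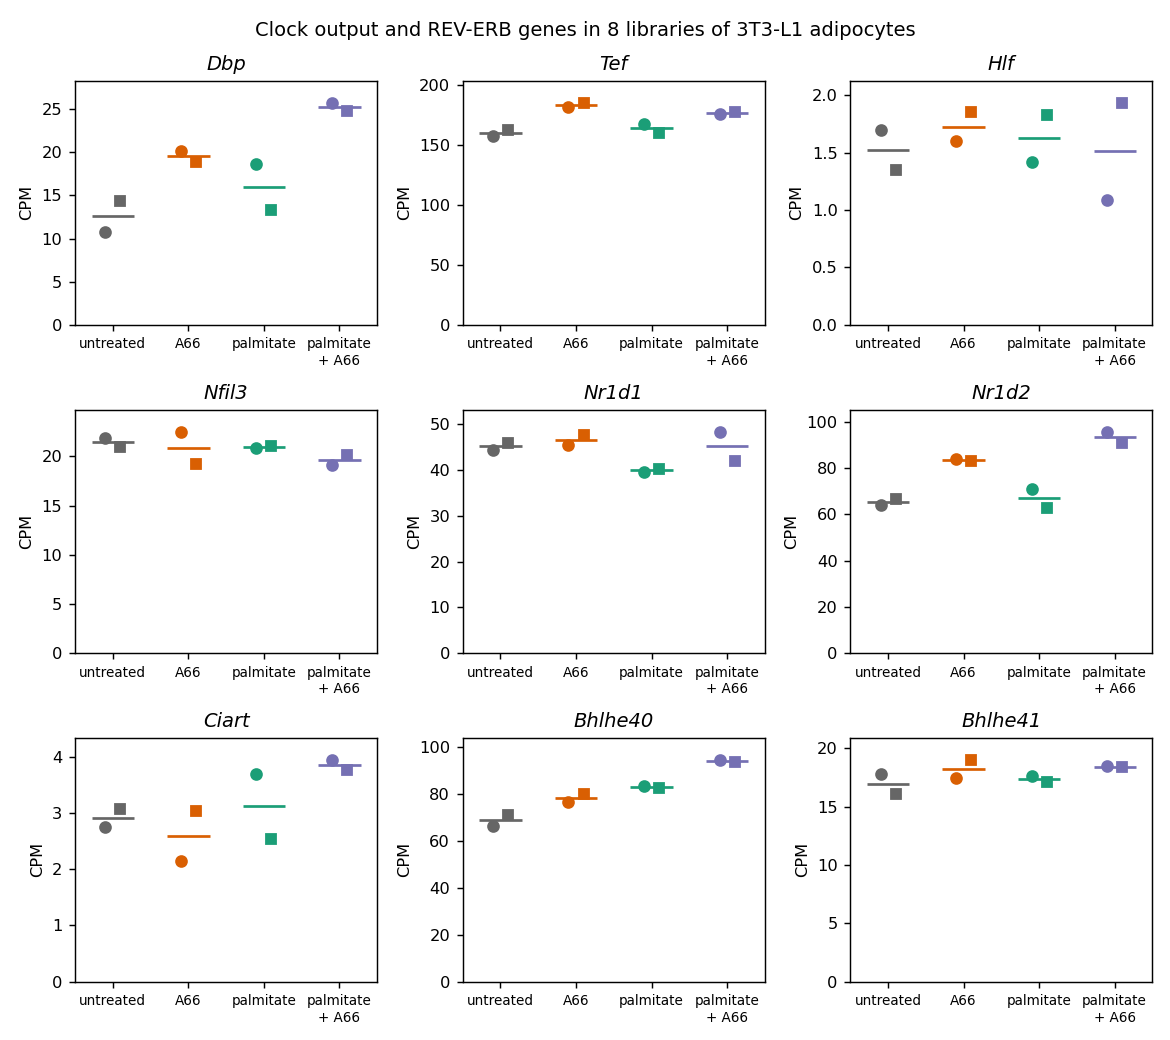
CPM of each of the 9 genes in the 8 libraries, with each axis starting at 0. Circles are replicate 1, squares replicate 2 and lines the group means. Dbp and Nr1d2 are highest with palmitate plus A66, at means of 25.2 and 93.2 CPM, while Nfil3 stays between 19.1 and 22.5 CPM.

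Promoter sequences were examined for the elements through which these factors are known to act on each other. The 250 bases before each RefSeq start (GRCm38.p6) were searched on both strands for the E-box CACGTG, the related element CACGTT (called E-prime-box), the D-box TTATGTAA or TTACGTAA, and the REV-ERB core AGGTCA. The table of promoters matched 8 of the 9 genes, with a pair of starts for Tef, and had no entry for Bhlhe40. Of 32851 windows of this length over all genes, 6.02% held CACGTG, 3.85% CACGTT, 0.931% a D-box and 14.0% AGGTCA. A match is a run of letters and was not tested for binding. Ciart held 3 E-boxes, which begin at positions -116, -58 and -44 from the start. Nr1d2 held an AGGTCA at position -77, and Nr1d1 an E-prime-box, read as AACGTG, at -28. These 3 windows are shown whole, because Ciart holds the most elements and Nr1d2 and Nr1d1 are the receptor pair. The RefSeq starts of Nr1d1 and Hlf lie outside the GENCODE spans given above. They lie on the minus strand, at chr3:95882229-95882478 for Ciart, chr14:18239107-18239356 for Nr1d2 and chr11:98775378-98775627 for Nr1d1, and the capitals mark the matches.
Ciart: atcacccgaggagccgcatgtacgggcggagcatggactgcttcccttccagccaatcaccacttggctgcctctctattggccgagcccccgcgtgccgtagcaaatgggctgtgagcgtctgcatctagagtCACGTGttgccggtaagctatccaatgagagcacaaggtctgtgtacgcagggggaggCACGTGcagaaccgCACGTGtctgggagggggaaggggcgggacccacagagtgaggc
Nr1d2: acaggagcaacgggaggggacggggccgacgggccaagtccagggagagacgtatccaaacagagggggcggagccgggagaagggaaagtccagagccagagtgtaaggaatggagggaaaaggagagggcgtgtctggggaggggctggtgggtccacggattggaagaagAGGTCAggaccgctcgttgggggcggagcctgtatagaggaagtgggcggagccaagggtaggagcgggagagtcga
Nr1d1: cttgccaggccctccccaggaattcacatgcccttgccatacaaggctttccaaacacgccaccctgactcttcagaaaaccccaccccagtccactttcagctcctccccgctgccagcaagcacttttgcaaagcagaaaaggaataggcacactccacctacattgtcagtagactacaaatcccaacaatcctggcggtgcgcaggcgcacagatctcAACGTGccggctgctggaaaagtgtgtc

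Tef held an E-box at both of its starts, the first in a window that lies wholly within annotated exon (250 of 250 bases), and Bhlhe41 held 1, while the window of Nfil3 held a REV-ERB core read as TGACCT. The 30 bases around each are shown with the match in capitals, at chr15:81802534-81802563 and chr15:81811264-81811293 (plus strand) for Tef, chr6:145865556-145865585 (minus strand) for Bhlhe41 and chr13:52981034-52981063 (minus strand) for Nfil3.
Tef start 1: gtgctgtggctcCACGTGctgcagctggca
Tef start 2: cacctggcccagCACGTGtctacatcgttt
Bhlhe41: tggtacgttccgCACGTGagctgggtgctg
Nfil3: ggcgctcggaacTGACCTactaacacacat
No window held a D-box of these letters, and those of Dbp and Hlf held none of the 4 elements. Of the 250 bases, 159 of the Dbp window and 138 of the Bhlhe41 window lie within annotated exon.

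**Figure D3:**
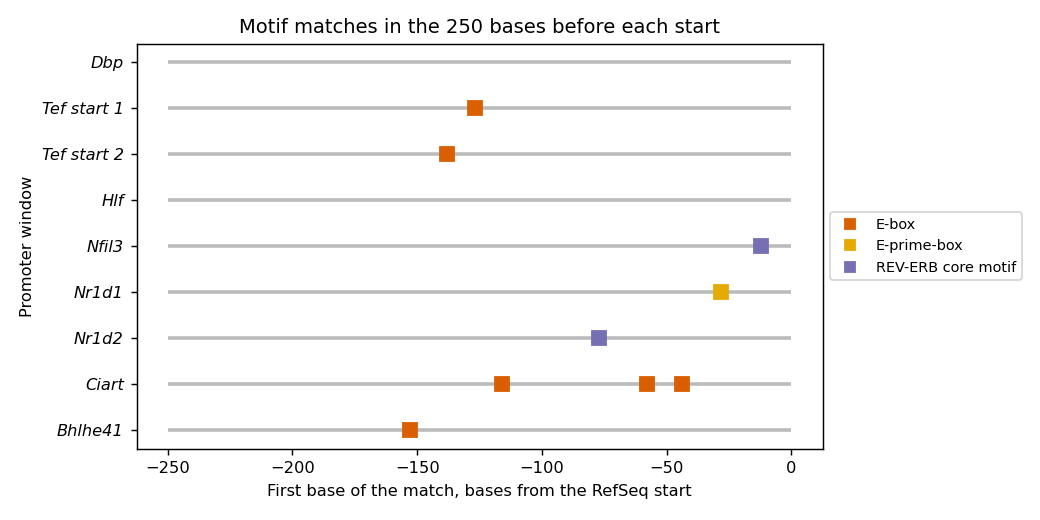
Position of each match in the 250 bases before the RefSeq start, in bases, for the 9 windows of 8 genes. Each square is the first base of a match, coloured by element, and Ciart alone has 3.

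A66 against untreated cells was the comparison with which the list was drawn up, so its values are given as a description, without p-values. Dbp, Nr1d2, Tef and Bhlhe40 were higher with A66 in both libraries. The log2 fold change was 0.63 for Dbp (SE 0.10, 95% interval 0.42 to 0.84), which is 1.55-fold. For Nr1d2 it was 0.35 (SE 0.046, interval 0.26 to 0.45), or 1.28-fold, while Tef at 0.20 (SE 0.041) and Bhlhe40 at 0.19 (SE 0.048) were 1.15-fold and 1.14-fold higher. These 4 of the 9 genes passed an adjusted p under 0.05 and none of the 9 passed in the lower direction, where 1.84% of 14158 genes passed in either direction, and nothing is read from this count. The same 4 had libraries that did not overlap between the groups, as 42.7% of all genes did. Intervals for the other 5 covered 0. The values were 0.19 for Hlf (-0.32 to 0.71), 0.11 for Bhlhe41 (-0.055 to 0.28), 0.041 for Nr1d1 (-0.071 to 0.15), -0.032 for Nfil3 (-0.20 to 0.13) and -0.18 for Ciart (-0.59 to 0.23). The median of the 9 was 0.19, beside -0.0011 over all genes tested. Tef did not pass without A66 replicate 1 (0.21) or replicate 2 (0.19), nor did Bhlhe40 without those libraries (0.22 and 0.16) or without untreated replicate 1 (0.14), or with scaling by library size (0.17) or DESeq2 (0.19).

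In cells also given palmitate, adding A66 raised Nr1d2, Dbp and Bhlhe40. This comparison, palmitate plus A66 against palmitate, shares no library with A66 against untreated, but its fit took the spread from all 8 libraries. The genes were chosen with the response to the same drug in the same cells in view, so calls here are not an independent test. The log2 fold change of Nr1d2 was 0.48 (SE 0.052, 95% interval 0.37 to 0.59, edgeR adjusted p = 1.97e-05), or 1.39-fold, and it ranked 3 of 14587 genes by p. Dbp rose by 0.66 (SE 0.12, interval 0.41 to 0.90, edgeR adjusted p = 0.00246), or 1.57-fold. The rise of Bhlhe40 was 0.18 (SE 0.045, interval 0.088 to 0.27, edgeR adjusted p = 0.0270), or 1.13-fold. So 3 of the 9 genes passed, all higher, where 2.81% of all genes passed in either direction and 0.973% in the higher direction. Tef, at 0.11 (0.025 to 0.20, edgeR adjusted p = 0.178), and Nr1d1, at 0.18 (0.053 to 0.30, edgeR adjusted p = 0.131), had intervals above 0 and did not pass after adjustment over all genes. Ciart at 0.30 (-0.088 to 0.69), Bhlhe41 at 0.089 (-0.076 to 0.25), Nfil3 at -0.094 (-0.26 to 0.068) and Hlf at -0.10 (-0.64 to 0.44) had intervals that covered 0. The libraries did not overlap for 7 genes that were higher and 1, Nfil3, that was lower, where 44.3% of all genes did not overlap, and Hlf alone of the 9 overlapped. The median of the 9 was 0.18, beside -0.00079 over all genes.

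Nr1d2 kept its call with A66 in palmitate-treated cells under every alternative, with a log2 fold change between 0.40 and 0.57 when each library was left out. Dbp lost it without palmitate replicate 2, the lower of the palmitate libraries (0.44, edgeR adjusted p = 0.0622), and with DESeq2 (0.66, adjusted p = 0.0710). Bhlhe40 lost it without any 1 of the 4 libraries compared, with edgeR adjusted p between 0.0758 and 0.162 and nearly the same fold change, and with scaling by library size (0.16, edgeR adjusted p = 0.0561). The value of Nr1d1 went from 0.073 without palmitate plus A66 replicate 1 (edgeR adjusted p = 0.752) to 0.28 without replicate 2 of that group, where it passed (edgeR adjusted p = 0.0276).

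**Figure D4:**
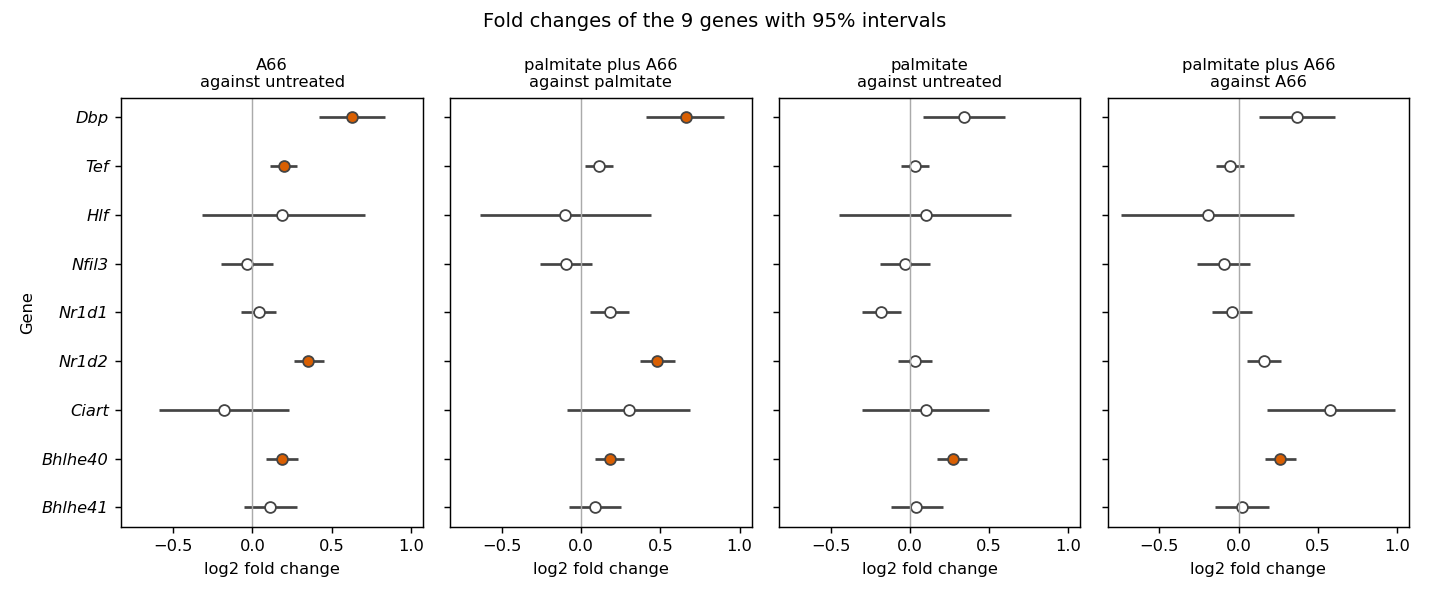
Log2 fold changes of the 9 genes with 95% intervals in 4 comparisons. Filled points passed an edgeR adjusted p under 0.05 over all genes, and open points did not; in A66 against untreated this is a description. Outside A66 against untreated, Bhlhe40 is filled in the other 3 comparisons, and Dbp and Nr1d2 with A66 in palmitate-treated cells.

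Palmitate against untreated cells changed 1 of the 9 genes, Bhlhe40. Its log2 fold change was 0.27 (SE 0.046, 95% interval 0.17 to 0.36, edgeR adjusted p = 0.00209), or 1.20-fold, where 1.17% of 14587 genes passed in either direction. Nr1d1 differed by -0.18 (SE 0.060, interval -0.30 to -0.056, edgeR adjusted p = 0.177) and Dbp by 0.34 (SE 0.12, interval 0.084 to 0.60, edgeR adjusted p = 0.229), neither past the threshold. The other REV-ERB gene, Nr1d2, was at 0.032 (-0.077 to 0.14). For Tef, at 0.030 (-0.055 to 0.12), Nfil3, at -0.033 (-0.19 to 0.13), and Bhlhe41, at 0.042 (-0.12 to 0.21), the intervals leave room only for small changes. Those of Hlf, at 0.10 (-0.45 to 0.64), and Ciart, at 0.10 (-0.30 to 0.50), were wide, and these genes had the lowest counts of the 9. The median of the 9 was 0.042, beside 0.00053 over all genes. This comparison shares the untreated libraries with A66 against untreated. Without untreated replicate 1 the call of Bhlhe40 was lost (0.22, edgeR adjusted p = 0.0646), and Dbp passed without palmitate replicate 2 (0.56, edgeR adjusted p = 0.00937) and with no filter on low counts (0.35, edgeR adjusted p = 0.00854). The value of Dbp depended on single libraries, at 0.074 without palmitate replicate 1 (edgeR adjusted p = 0.914), 0.16 without untreated replicate 1 (edgeR adjusted p = 0.788) and 0.57 without untreated replicate 2 (edgeR adjusted p = 0.0504).

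With A66 present in both groups, palmitate raised Bhlhe40 by a log2 fold change of 0.26 (SE 0.045, 95% interval 0.17 to 0.36, edgeR adjusted p = 0.00105). This comparison shares the A66 libraries with A66 against untreated, and those given both agents with A66 in palmitate-treated cells. The call was made for 1 of the 9 genes, where 2.73% of all genes passed. Ciart, at 0.58 (SE 0.20, interval 0.18 to 0.99, edgeR adjusted p = 0.126), Dbp, at 0.37 (SE 0.12, interval 0.13 to 0.61, edgeR adjusted p = 0.0988), and Nr1d2, at 0.16 (SE 0.051, interval 0.053 to 0.27, edgeR adjusted p = 0.106), had intervals above 0 and did not pass. The remaining genes lay between -0.19 for Hlf and 0.019 for Bhlhe41, with Nr1d1 at -0.041 (-0.17 to 0.083). The median of the 9 was 0.019, beside 0.00044 over all genes. In a fit on the 4 libraries of these groups alone, Dbp (edgeR adjusted p = 0.00219) and Nr1d2 (edgeR adjusted p = 0.0291) also passed. Dbp and Nr1d2 passed as well without either palmitate library (edgeR adjusted p between 0.0209 and 0.0491), and, with Ciart (edgeR adjusted p = 0.0217), with no filter on low counts, while Bhlhe40 did not pass without A66 replicate 1 (0.23, edgeR adjusted p = 0.0640).

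Whether the response to A66 differed with palmitate was tested as an interaction, and none of the 9 genes passed in edgeR or in DESeq2, nor had any an unadjusted edgeR p under 0.05. The interaction contains the difference of A66 against untreated cells, which was in view when the genes were chosen, so its values for the 9 genes are a description. Over all genes 0.00686% passed in edgeR, which is 1 gene, and 8 passed in DESeq2, while 1155 genes had an unadjusted p under 0.05 in edgeR. The interaction was 0.13 for Nr1d2 (95% interval -0.025 to 0.28, edgeR adjusted p = 0.715), 0.14 for Nr1d1 (-0.037 to 0.31, edgeR adjusted p = 0.732) and 0.48 for Ciart (-0.087 to 1.06, edgeR adjusted p = 0.709). Unadjusted, these had the smallest p-values of the 9, between 0.0928 and 0.115. For Bhlhe40 it was -0.0036 (-0.14 to 0.13) and for Dbp 0.027 (-0.33 to 0.38). For Tef it was -0.083 (-0.20 to 0.037).

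Of 12 genes of the core loop that these genes are tied to, 11 could be tested, and with A66 against untreated cells 4 passed in edgeR and 7 did not, where 1.84% of all genes passed. DESeq2 called 1 of the 4, Per1, and gave Npas2 no adjusted p. As this comparison was in view when the clock genes were listed, these values too are a description. Npas2, the partner of BMAL1 that can replace CLOCK, fell by 1.87 on the log2 scale, Arntl by 0.30 and Per1 by 0.29, and Per3 rose by 0.24. In palmitate-treated cells 3 of the 11 passed, where 2.81% of all genes did. Npas2 fell by 2.09 with A66 (edgeR adjusted p = 0.0219) and Arntl fell by 0.43 (edgeR adjusted p = 0.00157), while Per3 rose by 0.29 (edgeR adjusted p = 0.00569). DESeq2 called Arntl and Per3 here and again gave Npas2 no adjusted p. Arntl, a gene that REV-ERB receptors repress, was at 27.4 and 27.6 CPM untreated, 23.5 and 21.0 with A66 alone, 24.0 and 26.7 with palmitate alone, and 18.8 and 18.7 with both agents. Its lowest libraries were those given both agents, in which Nr1d2, Dbp, Bhlhe40 and Ciart were all at their highest, and a link between Arntl and any of these genes was not tested. Npas2 rests on few reads, with 49 and 66 counts untreated and 14 and 5 with both agents. With palmitate alone Per1, a gene of the repressor arm, fell by 0.21 (edgeR adjusted p = 0.0477), where 1.17% of all genes passed. With A66 present in both groups no core loop gene passed for palmitate in edgeR or DESeq2, where 2.73% of all genes passed in edgeR. Unadjusted, 1 had an edgeR p under 0.05, where 14.6% of all genes did.

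Of 8 other clock-controlled genes, 2 passed with A66 against untreated cells, the comparison in view when the lists were drawn up, where 1.84% of all genes passed, and this too is a description. Alas1, the first enzyme of haem synthesis, fell by 0.21 and Cdkn1a, a cell cycle inhibitor, by 0.19. None of the 8 passed in edgeR or DESeq2 for A66 in palmitate-treated cells or for palmitate against untreated cells. There, 2.81% and 1.17% of all genes passed in edgeR. An unadjusted edgeR p under 0.05 was found for 3 and 2 of the 8, and for 2101 and 1753 of all 14587 genes. Tsc22d3, a glucocorticoid-induced gene, passed for palmitate with A66 present (0.20, edgeR adjusted p = 0.0207), where 2.73% of all genes passed. None of 8 genes of clock kinases and ubiquitin ligases and none of 6 genes of the NCoR and HDAC3 corepressor complex, through which REV-ERB receptors repress, passed in edgeR or DESeq2 in any of the 4 comparisons. Over all genes, between 1.17% and 2.81% passed in edgeR in these comparisons. The log2 fold changes of both lists lay between -0.14 and 0.23. Unadjusted, 1 gene of each list had an edgeR p under 0.05 for A66 in palmitate-treated cells, where 14.4% of all genes did.

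**Figure D5:**
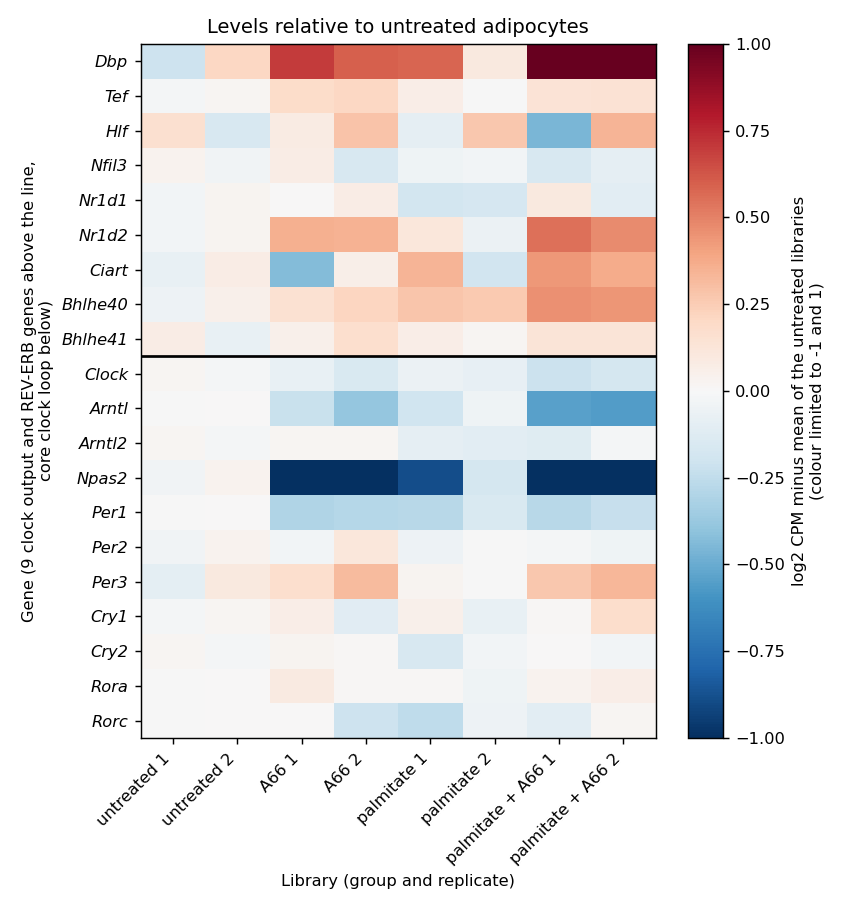
Log2 CPM of the 9 genes (above the line) and of 11 core loop genes (below it) in each library, minus the mean of the untreated libraries, with the colour limited to -1 and 1. Dbp, Nr1d2 and Bhlhe40 are warm with palmitate plus A66, and Arntl and Npas2 are blue.

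The genes most like Dbp and Nr1d1 over the 8 libraries were taken among genes with a mean of at least 1 CPM and an SD of log2 CPM of at least 0.2. Likeness was Pearson's r of log2 CPM, a description over 8 libraries that share their treatments. Of the 9 genes, Dbp, Hlf, Nr1d2 and Ciart met these minimums, and the other 5, Nr1d1 among them, could not appear in such a list. For Dbp, the 5 genes highest among 1332 were Maoa (0.953), Gdpd1 (0.951), Nr1d2 (0.933), Rnase4 (0.928) and Stx11 (0.922). For Nr1d1, those among 1333 were Slc25a27 (0.901), Ccl2 (0.880), Ankrd1 (0.876), Tuft1 (0.846) and Anxa3 (0.836). An r over 0.9 was reached by 10 genes for Dbp and by 1 for Nr1d1, whose own SD of log2 CPM was only 0.108.

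Of the 9 genes, 6 overlap a gene of the other strand. Whether counting used the strand is not given in the sources used here. Sphk2 overlaps 18.0% of the exon bases of Dbp and lay between 27.5 and 30.0 CPM in all 8 libraries, without the rise seen for Dbp. Thra, which encodes a thyroid hormone receptor, overlaps 8.55% of those of Nr1d1. It was at 272 and 259 CPM untreated, 260 and 258 with A66 alone, 238 and 258 with palmitate alone, and 212 and 216 with both agents, and it fell with A66 in palmitate-treated cells (-0.21, edgeR adjusted p = 0.00736), where Nr1d1 was at 0.18. The part of reads from these shared bases in the values of Nr1d1 and Dbp was not tested. Gm43909 overlaps 19.0% of the exon bases of Bhlhe41 and was not analysed here. The antisense genes at Tef (Gm17597), Bhlhe40 (0610040F04Rik) and Ciart (C920021L13Rik) lay at or below 0.659, 0.0370 and 1.04 CPM.

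Cell type markers differed between some of the same groups. The summed adipocyte markers ranged from 8158 to 8463 CPM untreated, 8478 to 8971 with A66, 7580 to 8241 with palmitate and 7287 to 8009 with both agents, and 3 of the 10 passed, all lower, with A66 in palmitate-treated cells, where 2.81% of all genes passed in either direction. These were Retn (-0.32, edgeR adjusted p = 5.11e-04), Slc2a4 (-0.23, edgeR adjusted p = 0.00762) and Cidec (-0.23, edgeR adjusted p = 0.0373), the last not called by DESeq2 (adjusted p = 0.319). With palmitate in the presence of A66, 6 of the 10 passed in edgeR, all lower, and 4 in DESeq2, where 2.73% of all genes passed in edgeR. Those with the smallest p-values were Retn (-0.32), Plin1 (-0.28), Adipoq (-0.24) and Cidec (-0.32), with edgeR adjusted p between 2.95e-04 and 0.00351, and of these DESeq2 did not call Cidec (adjusted p = 0.0747). The 5 macrophage markers summed to 2.80 to 3.70 CPM untreated, 2.92 to 3.43 with A66, 4.01 to 4.41 with palmitate and 5.65 to 5.96 with both, nearly all of it Cd68, which passed with palmitate in the presence of A66 (0.91, edgeR adjusted p = 0.00140). The 3 endothelial markers summed to between 0.346 and 0.832 CPM. Ptprc, the defining marker of blood cells, had 1 count in 1 library and none in the others. Of 8 pre-adipocyte or fibroblast markers, whose sums lay between 4119 and 4826 CPM, 2 passed with A66 in palmitate-treated cells, Acta2 higher (0.35, edgeR adjusted p = 0.0305) and Col1a1 lower (-0.33, edgeR adjusted p = 1.75e-04). Acta2 also passed in edgeR, higher, with A66 against untreated cells (0.23, edgeR adjusted p = 0.0262), and DESeq2 called it in neither (adjusted p = 0.427 and 0.543). For A66 in palmitate-treated cells DESeq2 too called 2 of the 8, a pair without Acta2. Col1a1 was higher with palmitate alone (0.25, edgeR adjusted p = 0.00331). In bulk RNA, fewer cells of a type and less RNA per cell cannot be told apart, and the part of cell composition in the values of the 9 genes was not tested. The drug acts on a protein, and no transcript was examined here as a check on which cells received A66. Every direction given for A66 rests on the labels.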

How the data were processed

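RNA of 8 libraries (4 groups of 2) was sequenced after oligo-dT selection with a stranded kit. Per the labels and the methods, the authors aligned paired reads to GRCm38 with TopHat2 2.0.11 and deposited raw HTSeq counts per Ensembl gene, without normalization. The annotation release and the strand setting are not given in the sources used here. The columns of the authors' own comparison (mean of normalized counts, log2 fold change with its standard error, test statistic, p-value and adjusted p-value) were not used. The file does not name their direction; by the names of the count columns they look coded as untreated over A66. As the strand setting is not given, how reads in overlaps of opposite strands were counted is not known.

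Symbols, coordinates and merged exon lengths came from GENCODE M21 (42548 of 43629 genes matched; 307 without a symbol had counts). Groups came from the treatment labels. Counts were tested in R 4.3.3 with edgeR 4.0.16: TMM, filterByExpr with a minimum count of 10, and the quasi-likelihood test, two-sided, with Benjamini-Hochberg adjustment over all genes tested. A66 was compared with untreated in 4 libraries (14158 genes). The other comparisons and the interaction used all 8 (14587 genes), where the common biological coefficient of variation was 0.0406. Standard errors are the log2 fold change over the root of F, and 95% intervals use the t distribution of the fit. The log2 CPM for likeness used a prior count of 2. With 2 libraries a group, no exact test was run. The libraries' depths were 42247091 to 57529803 counts, and floors cover counting error only.

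All 9 genes were named; of the other lists, genes with an adjusted p under 0.05, at most 4 per list and comparison by smallest p. The members and lists were chosen with earlier results of these data known. The alternatives were RLE normalization, library size only, DESeq2 1.42.0, other filters on low counts, fits on more or fewer groups, a block for the replicate number, and leaving out each library. The scripts were tested on simulated counts. Promoter windows came from RefSeq (GRCm38.p6).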

Additional observations from a re-analysis of the deposited data

How the results depend on the processing

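Of 630 values of the 9 genes under the alternatives, 574 kept their direction and their side of the threshold, 16 lost a call, 12 gained one and 28 changed sign. All 28 came from leaving out 1 library, none of them with a call. Leaving out libraries in turn, with the lone library assumed to vary like the others, the log2 fold change ranged over -0.15 to 0.078 for Nfil3 and -0.44 to 0.054 for Ciart with A66 against untreated. For palmitate against untreated it ranged over -0.0048 to 0.067 for Tef, -0.091 to 0.27 for Hlf, -0.059 to 0.12 for Nr1d2, -0.20 to 0.34 for Ciart and -0.031 to 0.11 for Bhlhe41. For A66 in palmitate-treated cells, Hlf ranged over -0.57 to 0.25. For palmitate with A66 present, the ranges were -0.66 to 0.16 for Hlf, -0.20 to 0.029 for Nfil3, -0.15 to 0.057 for Nr1d1 and -0.041 to 0.080 for Bhlhe41. In the interaction they were -0.21 to 0.29 for Dbp, -0.76 to 0.059 for Hlf, -0.17 to 0.059 for Nfil3, -0.055 to 0.043 for Bhlhe40 and -0.093 to 0.050 for Bhlhe41. Over all genes, 261 passed with A66 against untreated, 171 for palmitate, 410 for A66 in palmitate-treated cells and 398 for palmitate with A66 present; with no filter on low counts these became 459, 396, 652 and 664, and the interaction went from 1 to 91. For palmitate, that setting called 2 of the 9 genes, and 4 with A66 present. The interaction counted 2 genes with library size only and 8 with DESeq2. A fit on the 4 libraries of the groups called 689 genes and 3 of the 9 for palmitate with A66 present. With each library left out, counts ranged from 98 to 635, 71 to 245, 147 to 494 and 107 to 502 genes in the order above, and from 0 to 10 in the interaction; of the 9 genes they ranged from 2 to 4, 0 to 2, 1 to 3 and 0 to 3, and were 0 in the interaction. The lowest counts over all genes came without A66 replicate 2, palmitate replicate 1, palmitate replicate 2 and A66 replicate 1, and the lowest of the 9 genes without either A66 library, untreated replicate 1, palmitate replicate 2 and A66 replicate 1. Counts also moved by over 1.5 times without A66 replicate 1 (102) or either untreated library (401 and 635) for A66, without untreated replicate 1 (82) for palmitate, without either library given both agents (191 and 211) for A66 in palmitate-treated cells, and without palmitate plus A66 replicate 1 (140) for palmitate with A66 present. Scaling by library size shifted the split of higher and lower calls, from 152 and 109 to 126 and 154 with A66, from 92 and 79 to 83 and 105 for palmitate, from 142 and 268 to 107 and 350 for A66 in palmitate-treated cells, and from 213 and 185 to 180 and 266 for palmitate with A66 present; the cause was not tested. Libraries share replicate numbers but no label pairs them, and deviations of same-numbered libraries correlated between -0.147 and 0.153 over 8956 genes; with the replicate number as a block, 282, 195, 448 and 438 genes and 3 in the interaction passed, with the same calls among the 9 genes. Depth limits Hlf and Ciart most, with as few as 53 and 111 counts in a library.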
